A study of Saccharomyces cerevisiae with 25 samples.

Results

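Messenger RNA levels at 225, 240 and 255 min without phosphate were set against those at 165, 180 and 195 min in one time course of budding yeast (Saccharomyces cerevisiae), 3 libraries against 3 out of a series of 25. The genes described are those with a listed value in all 6 libraries, which were 3046 of the 6650 named genes of the table. All 25 cultures came from BY4741, a MATa haploid used in many laboratories that lacks HIS3, LEU2, MET17 and URA3, and carried a yellow fluorescent protein gene behind the PHO84 promoter (pho84pr-YFP) and a DAmP allele of PHO85. A DAmP allele disturbs the end of the gene and lowers the amount of its transcript, and cells with an intact PHO85 were not analysed here, so no value below measures what the allele does. The series began in high phosphate medium at 0 min and went on in medium without phosphate with a sample every 15 min. Each time is 1 library, so the 3 neighbouring times of a window stand in for replicates. The p-values therefore rest on how far neighbouring times lie apart, and any change inside a window counts as spread. The library at 210 min, which lies between the windows, was left out because it held only 767 listed reads. Values are given in RPM, the reads of a gene per 1000000 reads of all genes listed in that library, and changes as log2 differences, 225-255 minus 165-195 min.

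Yeast answers the loss of phosphate through the kinase Pho85 and its cyclin Pho80, which keep the transcription factor Pho4 out of the nucleus while phosphate is plentiful. When phosphate runs out, the inhibitor Pho81 blocks the kinase and Pho4 switches on the PHO regulon, which encodes phosphate transporters, secreted acid phosphatases and the enzymes that make polyphosphate. Growth control acts beside it. Genes of ribosomal proteins are transcribed through Rap1, Fhl1 and Ifh1, and genes of ribosome biogenesis through other factors at the PAC and RRPE elements, and both groups are known to be turned down when nutrients become scarce. Msn2, Msn4 and Gis1, the last of them under the kinase Rim15 that Pho85 itself restrains, drive stress and stationary phase genes.

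The 225, 240 and 255 min libraries held 589017, 846690 and 645272 listed reads, and the 165, 180 and 195 min libraries 1549027, 977433 and 192943. A gene with fewer than 10 reads in a library has no value there, which means below 51.83 RPM at 195 min and below 6.46 to 16.98 RPM in the 5 others. The shallow 195 min library therefore set the list of genes, since 1580 further genes were missing at that time only. The mating type of the strain was seen in both windows. All 8 markers of mating type a were listed in each window and summed to 3664 to 4259 RPM at 225-255 min and 3281 to 4266 RPM at 165-195 min. Of 4 markers of mating type alpha STE3 and SAG1 were listed, with sums of 47.5 to 86.2 RPM in the later window and 0 to 67.5 RPM in the earlier one, and both alpha-factor genes were unlisted. HIS3, LEU2, MET17 and URA3, deleted in BY4741, were unlisted in all 6 libraries, and 17 markers of meiosis summed to 206 to 295 RPM at 225-255 min and 187 to 347 RPM at 165-195 min. PHO85 itself had 21.3 RPM at 240 min and 6.46 RPM at 165 min and was unlisted in the other 4 libraries.

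Ribosomal protein transcripts fell almost as a whole set between the windows, and few other transcripts passed the threshold for a fall with them. Of the 3046 genes 119 were lower at 225-255 min, 3.91% of those tested, and 25 were higher, 0.821% (limma, Benjamini-Hochberg adjusted p below 0.05). The 119 lower genes comprised 112 ribosomal protein genes and 7 others, among them YBR191W-A, whose values nearly repeat those of the ribosomal protein gene RPL21A. The 3 later libraries lay above all 3 earlier ones at 444 genes, 14.6% of those tested, and below them at 255, 8.37%. Of those 255 genes 124 were ribosomal protein genes. With libraries weighted by limma 211 genes were called lower, 134 of them ribosomal protein genes. An unadjusted limma p below 0.05 was reached by 461 genes in the main fit. The median change over all genes was 0.07 on the log2 scale. With each library centred on its median gene it was -0.06, and with libraries scaled on all reads other than those of ribosomal protein genes it was -0.11, a shift of more than 0.1 that bears on every rise named below. These scalings gave 17 and 10 higher and 123 and 125 lower genes, and quantile normalization gave 53 higher and 117 lower. Single libraries weighed on the count of 144: it was 337 without the 195 min library, 172 higher and 165 lower. With the 180, 225, 240 or 255 min library left out in turn, 14, 9, 4 and 5 genes were higher and 78, 69, 60 and 71 lower.

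**Figure D1:**
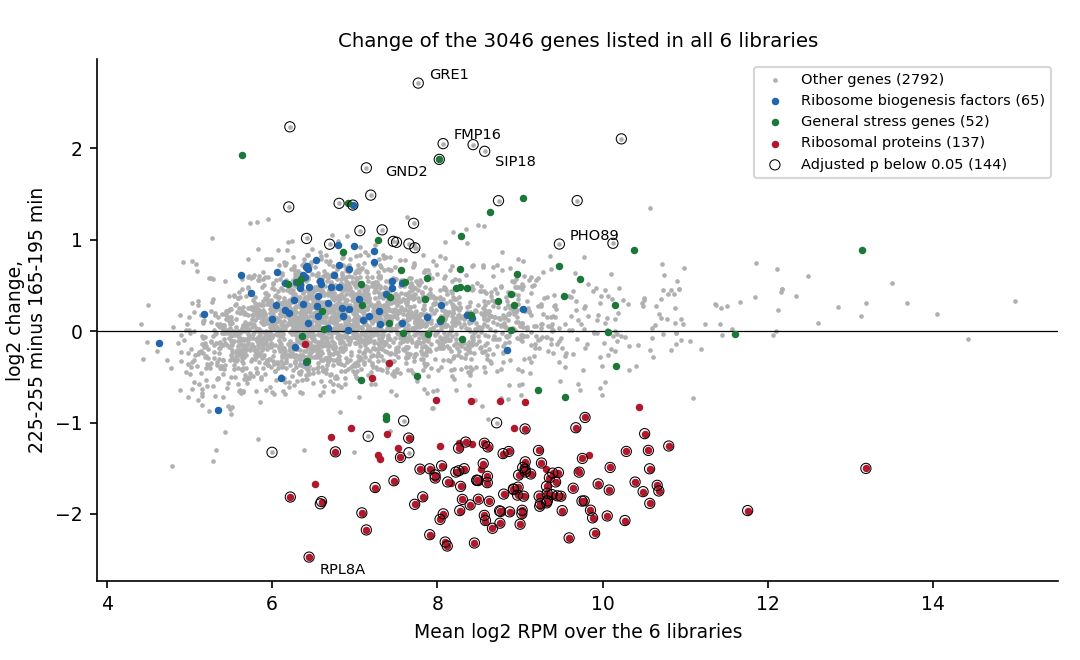
Each point is 1 of the 3046 genes, with the mean log2 RPM over the 6 libraries on the x axis and the log2 change, 225-255 minus 165-195 min, on the y axis. Ringed points are the 144 genes past the threshold, and the red ribosomal protein genes all lie below 0, between -2.47 and -0.14.

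Of 138 ribosomal protein genes, which encode the structural proteins of the cytoplasmic ribosome, 137 were tested. All 137 had a negative change, with a median of -1.65, 112 fell past the threshold, beside 3.91% of all genes tested, and 124 lay below all earlier libraries without overlap. The large subunit contributed 62 of 81 tested members with a median of -1.59, and the small subunit 50 of 56 with a median of -1.77. The direction held under the 3 other scalings, with medians of -1.84 to -1.50 and 109 to 113 called lower. With the 180, 225, 240 or 255 min library left out in turn, 74, 65, 57 and 68 were called lower, and without the 195 min library 134. As these are bulk RNA samples, fewer cells making a transcript and less of it per cell cannot be told apart.

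RPL8A (chromosome VIII, 35255 to 36025 in build R64), which encodes a protein of the large subunit, had the largest fall of all genes tested. It stood at 43.3, 33.0 and 35.5 RPM at 225, 240 and 255 min, against 398, 194 and 112 RPM at 165, 180 and 195 min. Every later library lay below every earlier one, and the earlier ones already fell in order of time. The log2 change was -2.47 ± 0.39 (SE, n = 3 libraries each; limma, adjusted p = 0.00334), which is 5.55-fold lower. RPL9A (VII, 227754 to 228329) followed with 119, 124 and 126 RPM, against 961, 606 and 425 RPM in the same order of times, and a change of -2.35 ± 0.28 (SE, n = 3 each; limma, adjusted p = 0.00136). RPL14A (XI, 431906 to 432720) had 319, 397 and 346 RPM at 225, 240 and 255 min, against 2421, 1444 and 1384 RPM at 165, 180 and 195 min, a change of -2.26 ± 0.25 (SE, n = 3 each; limma, adjusted p = 0.00136). In the small subunit RPS22A, RPS7A and RPS16B fell most, by 2.32, 2.31 and 2.23 on the log2 scale. RPS22A (X, 74910 to 75302) had 151, 162 and 156 RPM in the later libraries, against 1223, 679 and 570 RPM in the earlier ones. The next 5 falls in size were those of RPL26B, RPS26B, RPL29, RPS8B and RPS6A, from -2.21 to -2.10, each without overlap between the windows.

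Rap1, the general activator of these genes, binds a site that contains the letters ACCCNNACA in many of them. These letters, read on both strands from 500 to 101 bases before the start codon, stood upstream of 48 of the 112 ribosomal protein genes that fell (42.9%), of 6 of the 25 that did not pass the threshold and of 5.03% of all 6006 annotated genes with such a window. A match is a description of letters and not a mapped binding site. The 150 bases around the match of the leading genes are given here as examples, from the RefSeq R64 genome in the direction of transcription, with the matching letters in capitals. They are RPL8A at chrVIII:36190-36339 on the minus strand, RPL9A at chrVII:228565-228714 on the minus strand and RPL14A at chrXI:431421-431570 on the plus strand. For contrast RPL22B is shown at chrVI:65103-65252 on the minus strand, a gene that did not pass the threshold in this step. RPS22A had no match in its window.
RPL8A: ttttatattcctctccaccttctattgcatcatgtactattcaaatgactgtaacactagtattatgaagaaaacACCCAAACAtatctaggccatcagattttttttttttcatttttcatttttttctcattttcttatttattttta
RPL9A: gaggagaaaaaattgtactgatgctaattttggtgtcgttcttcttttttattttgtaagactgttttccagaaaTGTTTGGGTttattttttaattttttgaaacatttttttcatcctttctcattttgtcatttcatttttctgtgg
RPL14A: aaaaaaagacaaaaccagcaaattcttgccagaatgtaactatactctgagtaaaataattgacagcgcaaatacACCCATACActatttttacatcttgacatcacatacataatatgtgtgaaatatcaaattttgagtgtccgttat
RPL22B: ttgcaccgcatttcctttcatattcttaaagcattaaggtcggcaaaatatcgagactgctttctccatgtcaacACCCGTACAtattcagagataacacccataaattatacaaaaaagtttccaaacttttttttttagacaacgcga
RPL8A and RPL14A carry the motif on the strand shown, as does RPL22B, and RPL9A carries its complement. Introns were common in both groups: 67.0% of the ribosomal protein genes that fell and 60.0% of those that did not pass had one, against 5.46% of all annotated protein-coding genes.

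**Figure D2:**
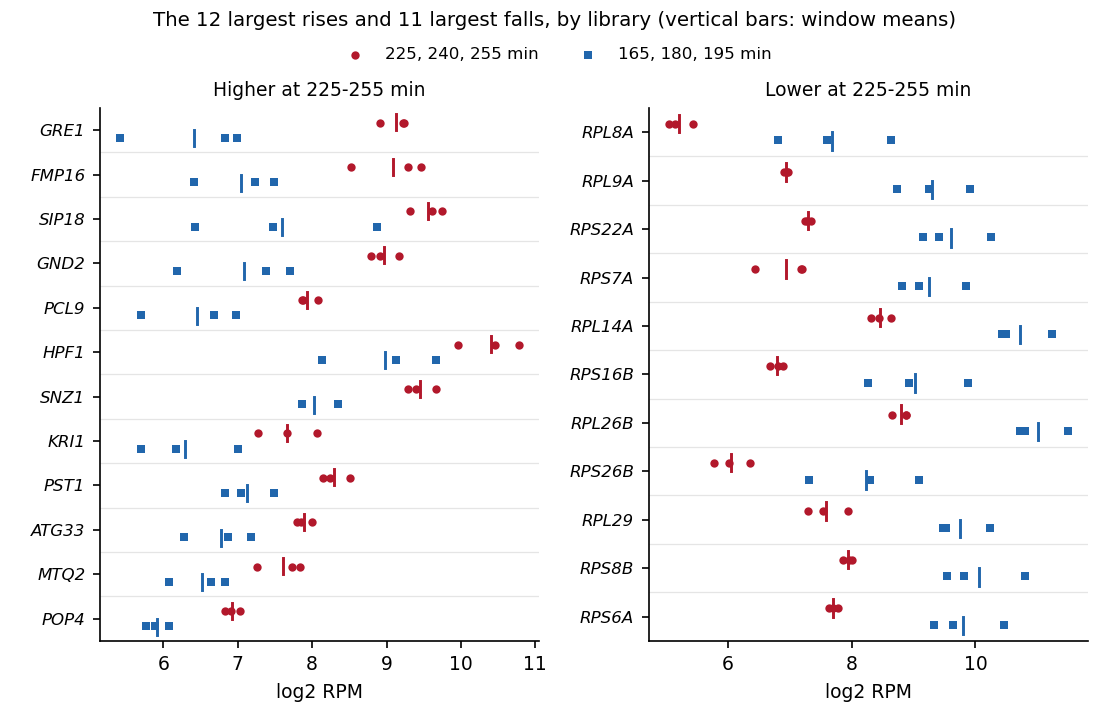
Points give log2 RPM on the x axis in each of the 6 libraries for the 12 largest rises (left panel) and the 11 largest falls (right panel) among called genes with a standard name, with later libraries as red circles above earlier ones as blue squares and bars at the window means. The red points of the falling genes are close together, while the blue points are spread along the time within the earlier window.

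Many ribosomal proteins are encoded by a pair of near-identical genes. In the 58 pairs with both copies tested, only 17.2% to 36.2% of the values in a library were whole numbers of reads within 0.05, whereas the share was 90.5% to 100% at the 21 ribosomal protein genes outside these pairs and 96.3% to 97.6% at the other genes. Values of one copy may therefore contain reads of the other. The fall did not depend on the pairs: of those 21 genes, 20 fell, with a median change of -1.73 and a range of -2.16 to -0.83, and RPS28A, whose copy RPS28B was not tested, was the one not past the threshold. All 116 genes of the pairs had a negative change. Both copies passed the threshold in 36 pairs, 1 copy in 20 and neither in 2, RPL4 and RPL36. Passing in 1 copy only does not mean unequal falls: RPP2A changed by -1.66 without passing and RPP2B by -1.70 with it. The changes of the copies differed by a median of 0.43, and by no more than 0.5 in 35 pairs.

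Some pairs came apart, and the examples here were chosen after their values were seen. RPL22A had 237, 274 and 284 RPM at 225, 240 and 255 min, against 1540, 889 and 793 RPM at 165, 180 and 195 min, a change of -1.96 (limma, adjusted p = 0.00151). Its paralog RPL22B had 88.3, 70.9 and 82.1 RPM, against 138, 96.2 and 51.8 RPM in the same order of times, with overlapping windows and a change of -0.14 (limma, adjusted p = 0.904). The 51.8 RPM of RPL22B at 195 min is the lowest value that this shallow library lists. All later values of RPL22B lay below those at 165 and 180 min. RPL22B was the 1 ribosomal protein gene whose change exceeded that of the step before it, 165-195 minus 105-135 min, in which it stood at -1.84 (difference 1.702; limma, adjusted p = 0.0335). In the opposite sense RPS27B changed by -1.96 and RPS27A by -0.35, and the A copy exceeded the B copy in its fall at RPL14 and RPS7, where the A minus B differences were -1.50 and -1.14. No test of the differences between copies was made.

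**Figure D3:**
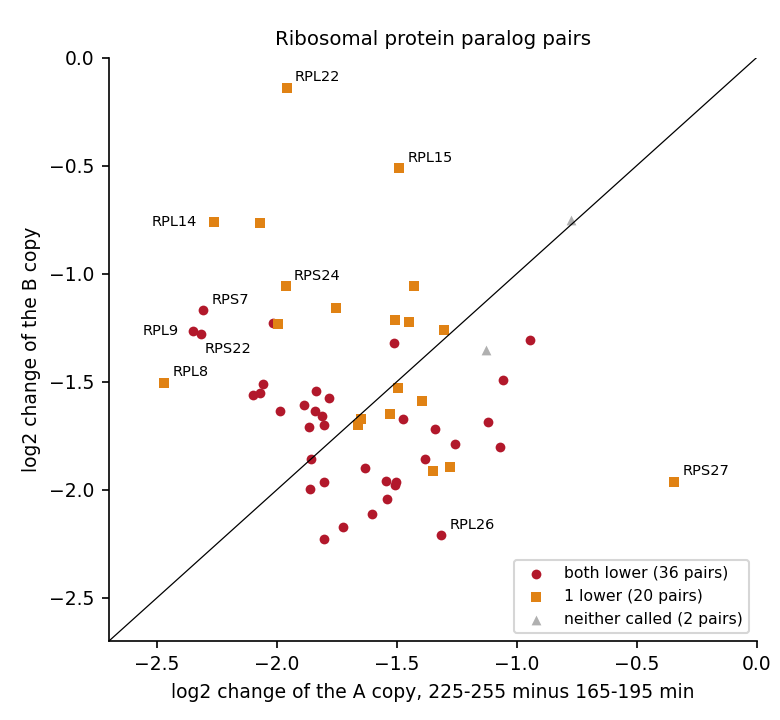
Each point is 1 of 58 pairs of ribosomal protein paralogs, with the log2 change of the A copy on the x axis and of the B copy on the y axis, and the line marks equal change. Colours and shapes give whether both, 1 or neither copy passed the threshold. RPL22 and RPS27 lie farthest from the line, with differences of -1.82 and 1.62.

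RPL41A and RPL41B, which encode the smallest protein of the large subunit, were chosen after their values were seen. RPL41A stood at 6636, 5069 and 5028 RPM at 225, 240 and 255 min, against 18510, 12760 and 16280 RPM at 165, 180 and 195 min, and RPL41B at 2211, 1649 and 1466 RPM, against 8762, 6119 and 5902 RPM. Their changes were -1.50 and -1.96 here, while in the step before they were -0.13 and -0.22. The difference between the steps was -1.37 for RPL41A (limma, adjusted p = 0.00847) and -1.74 for RPL41B (limma, adjusted p = 0.00465), and both copies, like most pairs, can share reads. RPL14A and RPL26B were the other ribosomal protein genes that passed the threshold for a larger fall in this step than in the one before. Their differences were -1.21 and -1.27.

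All ribosomal protein genes together took 5.03%, 4.90% and 5.06% of the listed reads at 225, 240 and 255 min, against 23.4%, 14.3% and 11.04% at 165, 180 and 195 min. The windows did not overlap, and the means were 4.998% ± 0.089 and 16.2% ± 6.4 (SD, n = 3 each). The difference of -11.2 percentage points had an exact two-sided permutation p of 0.1, the smallest that 3 against 3 libraries can give, so none of the 11 lists whose shares were compared could pass 0.05. Neighbouring windows frame these values, with 31.3% to 33.2% at 105-135 min before and 4.33% to 5.03% at 285-315 min after. Inside the earlier window the median ribosomal protein gene changed by -1.27 between 165 and 195 min. From 195 to 225 min, across the left-out time, it changed by -1.08, and from 225 to 255 min by 0.11. The spread differed too: the median SD of these genes was 0.15 log2 units at 225-255 min and 0.65 at 165-195 min, against 0.21 and 0.34 over all genes. Depth moved with this order, since the 195 min library was the shallowest of the 6 and the 165 min library the deepest, and its part in the values was not tested. Without the 195 min library the difference of the shares was -13.8 percentage points.

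**Figure D4:**
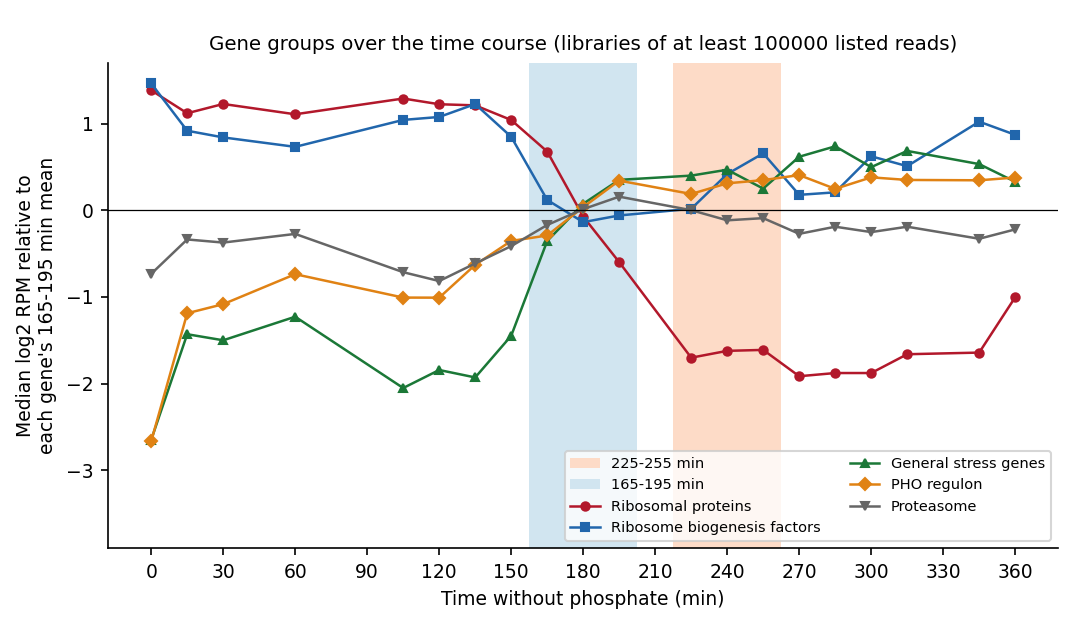
Median log2 RPM of 5 gene groups relative to each gene's mean at 165-195 min (y axis), against time without phosphate in min (x axis), for the 20 libraries with at least 100000 listed reads. Shading marks the windows compared. The ribosomal protein line goes from 0.68 at 165 min to -0.60 at 195 min, and from -1.70 at 225 min to -1.61 at 255 min.

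The 7 other genes that fell include STM1, which encodes a protein that clamps idle ribosomes. STM1 (chromosome XII, 440467 to 441288) had 205, 204 and 197 RPM at 225, 240 and 255 min, against 693, 522 and 679 RPM at 165, 180 and 195 min. Its windows did not overlap, its change was -1.63 ± 0.20 (SE, n = 3 each; limma, adjusted p = 0.00141), and its earlier values did not fall in order of time, whereas those of 122 of the 137 ribosomal protein genes did. Of 14 tested genes of inositol and phospholipid synthesis 2 fell and none rose, beside 3.91% and 0.821% of all genes tested. PSD1, the mitochondrial phosphatidylserine decarboxylase, had 74.7, 122 and 97.6 RPM in the later libraries, against 215, 217.9 and 207 RPM in the earlier ones (change -1.15, SE 0.23, n = 3 each; limma, adjusted p = 0.0123). ITR1, the inositol transporter, had 297, 331 and 267 RPM, against 585, 551 and 653 RPM (change -1.003, SE 0.20, n = 3 each; limma, adjusted p = 0.0117). Their changes in the step before, 165-195 minus 105-135 min, were 0.50 and 0.48, and both differed from it, by -1.65 for PSD1 and -1.48 for ITR1. DOG2, a sugar phosphate phosphatase, and PFS1, a gene of prospore formation, changed by -0.98 and -1.33. The last genes were YMR230W-A, which begins 126 bases beyond the small subunit gene RPS10B, and YBR191W-A. Reads of close neighbours cannot be told apart where strand was not used. YBR191W-A had 47.2, 47.5 and 55.1 RPM at 225, 240 and 255 min, against 382, 231 and 71.0 RPM at 165, 180 and 195 min. Nearly the same values stood at the ribosomal protein gene RPL21A, with 47.2, 48.65 and 56.9 RPM, against 385, 231 and 71.0 RPM. The reads of YBR191W-A may therefore be those of RPL21A. STM1, DOG2, PFS1, YMR230W-A and YBR191W-A are named to complete the 7, and RPL21A for its likeness to YBR191W-A, outside the rule for named genes.

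Among the 25 genes that rose, those with a standard name and the largest changes include genes of desiccation tolerance. With the 180, 225, 240 or 255 min library left out, 11, 8, 4 and 5 of the 25 were still called. GRE1 (chromosome XVI, 128632 to 129138), which encodes a hydrophilin, one of the very water-loving proteins that protect dehydrated cells, had 484, 596 and 601 RPM at 225, 240 and 255 min, against 42.6, 127 and 114 RPM at 165, 180 and 195 min. Its lowest later library was far above its highest earlier one, and the change of 2.71 ± 0.36 (SE, n = 3 each; limma, adjusted p = 0.00146) is 6.55-fold. FMP16 (IV, 588098 to 588379), a gene whose protein is found in mitochondria, had 367, 708 and 628 RPM, against 85.2, 179 and 150.3 RPM in the same order of times (change 2.05, SE 0.32, n = 3 each; limma, adjusted p = 0.003). SIP18 (XIII, 611016 to 611255), the other desiccation hydrophilin, had 635, 782 and 857 RPM at 225, 240 and 255 min, against 85.9, 178 and 466 RPM at 165, 180 and 195 min. It therefore had already climbed within the earlier window, and its change of 1.97 ± 0.46 (SE, n = 3 each; limma, adjusted p = 0.0285) missed the threshold when libraries were scaled without the reads of ribosomal protein genes. YMR175W-A, 58 bases beyond SIP18, changed by 2.04 beside it. SNZ1, a pyridoxine synthesis gene known for its stationary phase expression, had 628, 673 and 812 RPM, against 233, 325 and 233 RPM (change 1.43, SE 0.22, n = 3 each; limma, adjusted p = 0.003). Of the 14 tested hydrophilin and stationary phase genes these 4 rose, beside 0.821% of all genes tested, with a median of 0.59. None fell by this test, but RGI1 at -1.33 was called lower under the 3 other scalings (limma, adjusted p = 0.0304 to 0.0427). Their list took 0.503%, 0.538% and 0.544% of reads at 225, 240 and 255 min, against 0.251%, 0.356% and 0.444% at 165, 180 and 195 min (exact two-sided permutation p = 0.1). FMP16 and SNZ1 kept their calls under all 3 other scalings, as did GRE1.

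Msn2 and Msn4 bind the stress response element, whose core is AGGGG on either strand. It stood in the upstream window of 10 of the 25 genes that rose (40.0%), against 31.6% of all genes tested and 29.2% of all annotated windows, and of 47 of the 52 tested general stress genes (90.4%), a list made of genes known to answer to these factors. The stretches that hold it at 3 of the risers follow, again 150 bases in the direction of transcription with the core or its complement in capitals, and GRE1 had none in its window. They come from chrXIII:610562-610711 (plus strand) for SIP18, chrIV:588506-588655 (minus strand) for FMP16 and chrVII:1004317-1004466 (plus strand) for GND2, and a match to the Rap1-type letters can contain this core. PHO89, the PHO gene that rose, is shown with them at chrII:798771-798920 (minus strand) for its CACGTG, the core bound by Pho4, which 6.65% of the genes tested have in this window.
SIP18: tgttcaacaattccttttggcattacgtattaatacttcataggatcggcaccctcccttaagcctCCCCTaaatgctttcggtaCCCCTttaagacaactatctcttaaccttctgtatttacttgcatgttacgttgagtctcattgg
FMP16: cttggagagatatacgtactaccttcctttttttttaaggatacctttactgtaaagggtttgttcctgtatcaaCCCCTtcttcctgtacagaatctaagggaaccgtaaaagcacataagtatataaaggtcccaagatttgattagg
GND2: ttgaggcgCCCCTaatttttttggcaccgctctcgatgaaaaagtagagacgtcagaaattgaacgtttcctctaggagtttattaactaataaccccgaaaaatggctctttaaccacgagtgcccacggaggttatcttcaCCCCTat
PHO89: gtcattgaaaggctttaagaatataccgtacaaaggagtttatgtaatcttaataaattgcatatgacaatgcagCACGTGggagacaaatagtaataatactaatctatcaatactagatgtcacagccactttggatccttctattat
SIP18 and GND2 each hold the stress core 2 times in the stretch shown, and FMP16 and PHO89 hold their motif 1 time.

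GND2 was the 1 general stress gene, of 52 tested, that rose past the threshold, beside 0.821% of all genes tested. It encodes the minor isozyme of phosphogluconate dehydrogenase in the pentose phosphate pathway and had 445, 575 and 484 RPM at 225, 240 and 255 min, against 72.3, 208 and 166 RPM at 165, 180 and 195 min (change 1.88, SE 0.34, n = 3 each; limma, adjusted p = 0.00625). The whole list had a median change of 0.38, with 38 positive and 14 negative members. Over all 3046 genes tested the median was 0.07, with 1788 positive and 1258 negative. It took 3.77%, 3.76% and 3.38% of reads in the later libraries, against 1.85%, 2.79% and 4.11% in the earlier ones, so the windows overlapped through the 195 min library (exact two-sided permutation p = 0.4). HSP12, a membrane-stabilising stress protein, shows the pattern, with 13070, 12260 and 11340 RPM at 225, 240 and 255 min, against 2686, 6904 and 15540 RPM at 165, 180 and 195 min (change 0.89; limma, adjusted p = 0.416). HSP26, a small heat shock protein, had 638, 919 and 1110 RPM, against 153, 359 and 570.1 RPM, with no overlap and a change of 1.46 (limma, adjusted p = 0.0687), and CTT1, the cytosolic catalase, a change of 0.99 (limma, adjusted p = 0.0731). HSP12, HSP26 and CTT1 were chosen after their values were seen.

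The rest of the risers belong to several processes. PCL9, a cyclin partner of Pho85 that is made as cells leave mitosis, had 269.9, 233 and 234 RPM at 225, 240 and 255 min, against 126, 102 and 51.8 RPM at 165, 180 and 195 min (change 1.49, SE 0.30, n = 3 each; limma, adjusted p = 0.013). It was the called one of 5 tested cyclins of Pho85 other than Pho80. The 51.8 RPM at 195 min, also that of RPL22B above and of KRI1 and DBP2 below, is the lowest value that this shallow library lists. HPF1, a cell wall mannoprotein, changed by 1.43, and PST1, another cell wall protein, by 1.18. PCL9 and PST1 are the called members of the list for mitotic exit and cell separation, where all 15 tested genes had a positive change with a median of 0.46. Of all 3046 genes tested 0.821% were called higher and 1788 had a positive change, with a median of 0.07. ATG33, a gene of mitophagy, changed by 1.11, and the remaining 10 of 11 tested autophagy genes did not pass. Enzyme genes among the risers were RNR2 (ribonucleotide reductase, 0.97), ERG25 (sterol methyl oxidase, 0.96) and ISU1 (iron-sulfur cluster scaffold, 0.95). TYE7, an activator of glycolytic genes, changed by 0.98 and AIM44, a bud neck protein, by 0.95. MTQ2, a methyltransferase that modifies a translation release factor, and POP4, a subunit of the RNA-cutting enzymes RNase P and RNase MRP, changed by 1.10 and 1.01. YLR154C-G, at 3176, 3716 and 1292 RPM in the later libraries against 622, 639 and 485 RPM in the earlier ones, lies inside a ribosomal RNA gene, whose reads it may hold. Under scaling without the ribosomal protein reads PCL9, HPF1, ATG33, ERG25, ISU1, MTQ2, POP4, TYE7 and AIM44, like SIP18, YMR175W-A, YOR152C, KRI1 and PHO89, were no longer called, and 10 of the 25 still were. TYE7 and AIM44, which were called too, are named outside the rule for named genes. The rule leaves out rows with no standard gene name, such as YLR154C-G with a change of 2.10 and YMR175W-A, and YCL048W-A, YHR033W, YLR346C and YOR152C, which also rose, had changes between 1.36 and 2.23.

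KRI1, a nucleolar protein needed to make the small subunit, was the 1 ribosome biogenesis gene of 65 tested that rose, beside 0.821% of all genes tested. It had 154, 203.1 and 267 RPM at 225, 240 and 255 min, against 128, 71.6 and 51.8 RPM at 165, 180 and 195 min (change 1.38, SE 0.33, n = 3 each; limma, adjusted p = 0.0335), and its earlier values fell while its later ones climbed with time. KRI1 lost its call under median-centring, quantile normalization and scaling without the ribosomal protein reads. The biogenesis list, the factors that process ribosomal RNA and assemble subunits, had a median change of 0.34 with 59 positive and 6 negative members. Over all 3046 genes tested the median was 0.07, with 1788 positive. The list so ran against the ribosomal protein genes in direction. It took 1.06%, 1.46% and 1.72% of reads in the later libraries, against 1.28%, 0.965% and 0.746% in the earlier ones, with overlap (exact two-sided permutation p = 0.2). These shares count only members listed in a library, of 138 in the list. The difference of the means was 0.42 percentage points, and 0.24 over genes listed in all 6 libraries. The RRPE element AAAATTTT stood upstream of 75.4% of the 65 and the PAC element GATGAG upstream of 69.2%, against 10.4% and 23.5% of all annotated windows. KRI1 is shown at chrXIV:56188-56337 on the minus strand, with 1 of its 2 RRPE matches in capitals, and had no PAC letters in the window.
KRI1: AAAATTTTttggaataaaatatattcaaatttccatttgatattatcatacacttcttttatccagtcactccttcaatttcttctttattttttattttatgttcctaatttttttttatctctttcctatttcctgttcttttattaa
The stretch starts with the matched letters.

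The step compared here can be set against the 60 min step before it, 165-195 minus 105-135 min, over the 2924 genes listed in all 12 libraries of 4 windows. The steps share the 165-195 min libraries, which enter them with opposite sign. The change here was higher than the one before at 67 genes, 2.29%, and lower at 170, 5.81% (limma, adjusted p below 0.05), and median-centred libraries gave 84 higher and 94 lower. The count of 237 was 621 without the 165 min library, 101 without the 180 min library, and 129, 127, 157, 125 and 113 without the 105, 120, 135, 240 and 255 min libraries. Of the 67 higher, 33 were biogenesis factors, out of 64 tested. Their median change was -1.15 in the step before, 0.35 here and 0.05 in the step after. Among these 12 libraries the list had its lowest share of reads at 195 min, 0.746%, but a share counts listed members only. At 195 min no gene below 51.83 RPM is listed. Over the 65 members listed in all 6 libraries the median relative to each gene's 165-195 min mean was -0.14 at 180 min and -0.06 at 195 min.

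Examples with the largest differences, after KRI1 at 3.17, were chosen after their values were seen. DBP2, an RNA helicase, had 56.0, 150.0 and 212 RPM at 225, 240 and 255 min, against 105, 64.4 and 51.8 RPM at 165, 180 and 195 min, and its difference between the steps was 2.91 (limma, adjusted p = 0.0157). NOG2, a GTPase of large subunit assembly, had 117, 195 and 237 RPM, against 93.8, 100.3 and 82.9 RPM in the same order of times, with a change of 0.93 here, -1.59 before and a difference of 2.52 (limma, adjusted p = 0.000786). RLP24, an assembly factor of the large subunit, changed by 0.94 here and -1.68 before. NOG2 and RLP24 lay above their earlier values without overlap but did not pass the threshold in this step alone. RNA polymerase I and III subunits had a like course, with medians of 0.17 here and -1.14 before over 9 tested genes. Of these 9 genes 2 had a higher change here than before, beside 2.29% of all genes tested. The median of 0.17 was -0.01 under scaling without the ribosomal protein reads.

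The stress genes went the other way. Their median was 1.93 in the step before, 0.36 here and 0.35 in the step after. Of 50 tested 29 had a lower change here than before and none a higher one, beside 5.81% and 2.29% of all genes tested. PGM2, phosphoglucomutase, had 603, 526 and 339 RPM at 225, 240 and 255 min, against 348, 678 and 1752 RPM at 165, 180 and 195 min. Its change was -0.65 here and 4.09 in the step before (difference -4.74; limma, adjusted p = 0.000533). The windows of PGM2 overlapped through the 165 min library. HXK1, a hexokinase that is repressed by glucose, had 727, 640.1 and 417 RPM in the later libraries, against 737, 1153 and 1026 RPM in the earlier ones, with changes of -0.72 here and 3.12 before. RGI1, a gene of energy metabolism under respiration, changed by -1.33 here and 3.54 before (difference -4.86; limma, adjusted p = 4.7e-05). Trehalose and glycogen genes had a median of 0.02 here and 2.12 before, with 7 of 13 lower than before, beside 5.81% of all genes tested. Their median here was -0.17 to -0.09 under the 3 other scalings. PGM2, HXK1 and RGI1 were chosen after their values were seen.

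**Figure D5:**
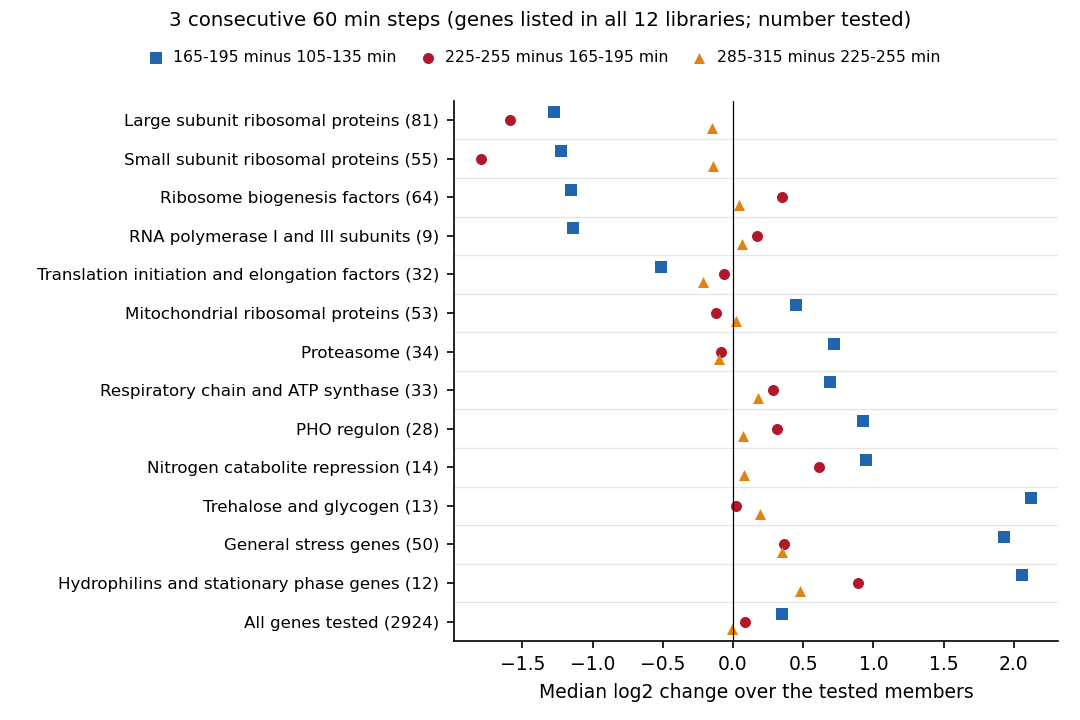
Median log2 change (x axis) of the tested members of 13 gene lists and of all 2924 genes, for 3 consecutive 60 min steps marked by colour and shape. Ribosomal protein genes of both subunits lie below -1 in the earliest and middle steps and near 0 in the last, while biogenesis factors lie at -1.15, 0.35 and 0.05.

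Against the step after, 285-315 minus 225-255 min, the change here was higher at 8 genes, 0.274%, and lower at 63, 2.15% (limma, adjusted p below 0.05), and 61 of the 63 were ribosomal protein genes. Their medians were -1.65 in this step and -0.14 in the next. This count of 71 was fragile: it was 21 with median-centred libraries, 166 without the 195 min library, 0, 2 and 12 without the 225, 240 and 255 min libraries, 36 to 38 without any of the 105, 120 or 135 min libraries, and 15 to 30 without any of the 285, 300 or 315 min libraries. Without the trend and robust settings of limma it was also 0. Both counts of 0 came with 335 and 352 genes at an unadjusted p below 0.05 (limma). PSD1 was also lower than in the step after, by 1.43 on the log2 scale. KRI1, PST1 and SNZ1, with GPM1, the phosphoglycerate mutase of glycolysis, and POL30, the sliding clamp of DNA replication, were among the 8 higher. GPM1 and POL30 were chosen after their values were seen.

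Of 29 tested genes in the 4 lists of the PHO regulon PHO89 rose and none fell, beside 0.821% and 3.91% of all genes tested, with a median change of 0.32. PHO89 (chromosome II, 796798 to 798522), a sodium-coupled phosphate transporter, had 862, 1028 and 1094 RPM at 225, 240 and 255 min, against 482, 623 and 446 RPM at 165, 180 and 195 min (change 0.95, SE 0.22, n = 3 each; limma, adjusted p = 0.0232). It lost the call under median-centring and under scaling without the ribosomal protein reads. PHO84, the main high-affinity transporter and the promoter source of the reporter, had 1171, 1661 and 1314 RPM in the later libraries, against 882, 1160 and 1228 RPM in the earlier ones, a change of 0.34 (limma, adjusted p = 0.516). The annotated gene YNCM0001W overlaps PHO84, and their reads cannot be told apart where strand was not used. VTC1, VTC3 and VTC4, subunits of the vacuolar polyphosphate polymerase, lay above their earlier values without overlap, as did 14.6% of all genes tested. Their changes of 0.32, 0.27 and 0.39 did not pass. The median of the 8 tested polyphosphate genes was 0.29, and 0.10 under scaling without the ribosomal protein reads.

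The acid phosphatase genes had overlapping windows. PHO5 stood at 5089, 4870 and 5969 RPM at 225, 240 and 255 min, against 2635, 3513 and 6537 RPM at 165, 180 and 195 min, a change of 0.43 (limma, adjusted p = 0.546) that was 0.80 without the 195 min library (limma, adjusted p = 0.00138). PHO11 and PHO12, near-identical copies that can share reads, changed by 0.08 and -0.05, and SPL2, which turns down low-affinity uptake, by -0.29. All 4 had a lower change here than in the step before, by 1.57 for PHO5, 1.27 for PHO11, 1.36 for PHO12 and 1.25 for SPL2 on the log2 scale. PHO81, the inhibitor of the kinase, changed by 0.33, and without the 195 min library by -0.03. PHO2, the partner of Pho4, changed by 0.28, and PHO4 and PHO80 were listed in 5 of the 6 libraries. PHO4 had 42.4, 74.4 and 46.5 RPM at 225, 240 and 255 min, against 20.7 and 36.8 RPM at 165 and 180 min, and PHO80 had 22.1, 37.8 and 31.0 RPM, against 32.9 and 36.8 RPM. The regulon took 3.06%, 3.08% and 3.19% of reads in the later libraries, against 2.19%, 2.64% and 3.35% in the earlier ones (exact two-sided permutation p = 0.4).

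Transcripts of the regulators named in the background were low or not past the threshold. RAP1 had 119, 80.3 and 91.4 RPM at 225, 240 and 255 min, against 80.7, 118 and 156 RPM at 165, 180 and 195 min, a change of -0.25 with overlap (limma, adjusted p = 0.763). IFH1, the coactivator at ribosomal protein genes, had 30.6, 35.4 and 62.0 RPM in the later libraries, against 19.4 and 24.6 RPM at 165 and 180 min, and was unlisted at 195 min. FHL1, SFP1, MSN2 and RIM15 were listed in 3, 1, 1 and 4 of the 6 libraries. MSN4 had 34.0, 17.7 and 29.4 RPM, against 11.6 and 16.4 RPM at 165 and 180 min, and GIS1 25.5, 27.2 and 18.6 RPM, against 36.2 and 28.6 RPM. CRF1, described as a corepressor of ribosomal protein genes, had 16.98, 23.6 and 34.1 RPM at 225, 240 and 255 min and was unlisted at 165, 180 and 195 min, which means below 6.46, 10.2 and 51.8 RPM. It was 1 of 5 genes listed in all 3 later and no earlier library, with LEE1, YJL136W-A, YLR307C-A and YGL006W-A. CIN5 and YER079C-A were listed in all 3 earlier and no later library. CRF1 and the other 6 are named because of this pattern.

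Much of the remaining transcriptome did not pass the threshold in either direction, which does not show that it was constant. Limma called no member of 34 tested proteasome genes (median -0.09, and 0.04 after quantile normalization), and none had an unadjusted p below 0.05. It also called none of 56 mitochondrial ribosomal protein genes (median -0.13), 32 translation factor genes (median -0.07) and 10 histone genes (median 0.36), of which 1, 3 and 2 had an unadjusted p below 0.05. The same held for 33 respiratory chain and ATP synthase genes and 17 genes of the TCA cycle, both with a median of 0.28 and with 6 and 3 positive members at an unadjusted p below 0.05. Of 14 genes under nitrogen catabolite repression, permeases and enzymes for poor nitrogen sources, 13 had a positive change, with a median of 0.62. Over all 3046 genes tested 1788 had a positive change, with a median of 0.07. Of the 14 genes 9 lay above the earlier libraries without overlap, beside 14.6% of all genes tested. Limma called none of them, with 6 at an unadjusted p below 0.05. GAP1, the general amino acid permease, had 560.3, 589 and 547 RPM at 225, 240 and 255 min, against 119, 288 and 482 RPM at 165, 180 and 195 min, a change of 1.15 (limma, adjusted p = 0.162). Of 30 chaperone genes 9 had a positive and 21 a negative change, from 1.46 for HSP26 to -1.31 for BTN2, which takes misfolded proteins to deposits. GAP1 and BTN2 were chosen after their values were seen.

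An alternative chosen after the data were seen left out the 195 min library and tested the 4626 genes listed in the 5 deeper ones. It called 195 genes higher, 4.22%, and 161 lower, 3.48% (limma, adjusted p below 0.05), and all 144 genes of the comparison with 6 libraries were among them. Of the ribosomal protein genes 134 of 137 fell, with a median of -1.99. General stress genes then rose in 16 of 57 tested, among them GTT1, a glutathione transferase, with 448, 408 and 494 RPM at 225, 240 and 255 min, against 128 and 258 RPM at 165 and 180 min (change 1.31; limma, adjusted p = 0.000686). Of the phosphate genes PHO5 and PHM8, a phosphatase that recovers phosphate from nucleotides, were among 7 of 35 that rose, with changes of 0.80 and 0.92. Genes of the translation machinery that fell in these 5 libraries and had missed the threshold with 6 were TEF2, which encodes the factor that brings tRNA to the ribosome, at -1.04, and EFT2, which encodes the translocation factor, at -0.94, with the ribosome-bound chaperone genes SSB1 and SSB2 at -1.38 and -0.95. The 1580 genes that the 195 min library had kept out were below 51.83 RPM there, so a low earlier value picked them. That choice favours rises, and the direction of their calls cannot be read as a result. Of these 1580 genes 34 rose and none fell, beside 4.22% and 3.48% of all 4626 genes tested. The 34 had changes from 0.83 for AIM38 to 2.28 for YDR034W-B. They include PUT1, proline oxidase, with 66.2, 62.6 and 55.8 RPM at 225, 240 and 255 min, against 18.7 and 29.7 RPM at 165 and 180 min, the proline permease gene PUT4, GSC2, an alternative subunit of cell wall glucan synthase, with 40.8, 88.6 and 88.3 RPM, against 18.7 and 22.5 RPM, and ATG8, the ubiquitin-like protein of autophagosomes. Genes of this paragraph were chosen after their values were seen.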

How the data were processed

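Total RNA of each culture was extracted with a NucleoSpin 96 RNA kit after lyticase digestion and its cDNA was sequenced on an Illumina instrument, per the labels' protocols. Reads were aligned with Bowtie to build R64, per the submitters' processing notes. Versions, the read counter and its handling of reads that fit several genes or either strand were not given in the sources used here. The authors deposited log2 values in 1 table, which sum to 1000000 RPM in every library on the linear scale. A normalization to the first time point, of which the labels speak, was not seen in them. The lowest value of each library was taken to be 10 reads, since the other values are then mostly whole numbers of reads within 0.05, and the depths given are the listed reads on that basis. Across the 25 libraries they were 767 to 4954493, which sets the lowest level a library can show. Of 6701 rows 51 had no name and were left out, and of the 6650 named ones 5965 matched a gene of RefSeq R64.

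The 225-255 and 165-195 min windows were compared over the 3046 genes listed in all 6 libraries with limma 3.58.1 (lmFit, eBayes with trend and robust, R 4.3.3) on log2 RPM without a pseudocount, with Benjamini-Hochberg adjustment over all genes tested and a threshold of 0.05. Steps before and after were contrasted in 1 fit of 12 libraries. Shares of reads were tested by exact permutation. Tables, exact tests and plots were made in Python 3.11.15 with pandas 2.3.3, numpy 2.4.6, matplotlib 3.10.9 and scipy 1.17.1. The limma steps were tested on simulated data. Alternatives covered scaling, filters, a pseudocount of 10 RPM, limma settings, library weights, a straight line in time and leaving out each library. Genes named by rule were the 12 largest called changes in each direction without overlap between windows, leaving out rows that have no standard gene name, up to 3 called members of each of 43 gene lists per direction, and fixed genes of the phosphate pathway and its growth regulators; others are said in the text to be chosen after their values were seen. A few results for single genes are not reported here. The windows, the members and the lists were chosen with earlier results of these data known.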

Additional observations from a re-analysis of the deposited data

Results flagged for a closer look

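Among the genes named by rule, the change in this step differed from that of a neighbouring 60 min step at the following genes, by limma's contrast between the steps with adjusted p below 0.05. Neighbouring steps share 3 libraries that enter with opposite sign, so 1 library that stands apart moves both.

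Compared with the step before, 165-195 minus 105-135 min, the change was higher by 3.17 at KRI1, the nucleolar assembly factor (adjusted p = 0.000481), by 1.60 at PCL9, the Pho85 cyclin (adjusted p = 0.032) and by 1.58 at MTQ2, the methyltransferase (adjusted p = 0.0165). It was lower at 8 genes. The phosphate genes PHO5, PHO12, PHO11 and SPL2 differed by -1.57, -1.36, -1.26 and -1.25. PSD1 and ITR1 of phospholipid synthesis and inositol uptake differed by -1.65 and -1.48, and the ribosomal protein genes RPL26B and RPL14A by -1.27 and -1.21. The adjusted p of these 8 lay between 0.006 and 0.0374.

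Compared with the step after, 285-315 minus 225-255 min, the change was higher by 1.78 at KRI1, by 1.54 at SNZ1 of pyridoxine synthesis and by 1.36 at PST1 of the cell wall, and it was lower at PSD1 by 1.43 on the log2 scale, a difference of -1.43 with an adjusted p of 0.0329. The 11 ribosomal protein genes with the largest falls also had a lower change than in the step after. The differences were -2.33 at RPL14A, -2.32 at RPS22A, -2.31 at RPS26B, -2.30 at RPS7A, -2.22 at RPS16B, -2.22 at RPL8A, -2.20 at RPS6A, -2.19 at RPL29, -2.17 at RPS8B, -2.15 at RPL9A and -2.01 at RPL26B. For KRI1, SNZ1, PST1 and these 11 genes the adjusted p lay between 0.00431 and 0.0485. The count of genes that differ from the step after was 0 without the 225 min library, so none of these 15 calls held without it.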

How the results depend on the processing

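No paired analysis was possible because each time is 1 library and the windows share no replicate numbers that mark a common source. The count of 144 changed genes was 527 with libraries weighted by limma (316 higher, 211 lower), 252 in 1 fit over 4 windows (99 higher, 153 lower) and 356 in the 5 deeper libraries (195 higher, 161 lower). Rises thus outnumbered falls with library weights, in the 5 deeper libraries and without the 195 min library, unlike the 25 higher and 119 lower with all 6. The total ranged between 64 and 337 when 1 library was left out. Without the 240 min library all 64 were among the 144, and without the 195 min library all 144 were among the 337. The difference from the step before, 237 genes, ranged between 101 and 621 with 1 library left out. The difference from the step after, 71 genes, was 21 with median-centred libraries, 0 without the trend and robust settings of limma, and between 0 and 166 with 1 library left out; unadjusted p below 0.05 was reached by 352 genes where the trend and robust settings were off. The share of reads in ribosomal protein genes differed by -13.8 to -7.67 percentage points in every alternative run.

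Of 712 values of named genes under 17 alternatives 611 kept their direction and their side of the threshold, 88 lost the call, 3 gained it and 10 reversed, and no gene called with all 6 libraries reversed. PHO11 reversed to -0.054 with median-centred libraries and to -0.10 with scaling without the ribosomal protein reads, and ranged between -0.084 and 0.28 with 1 library left out. PHO12 reversed to 0.034 with a straight line in time and 0.14 in the 5 deeper libraries, and ranged between -0.21 and 0.14 with 1 library left out. PHO81 reversed to -0.18 with library weights and -0.03 in the 5 deeper libraries, and ranged between -0.03 and 0.63. SPL2 reversed to 0.086 with quantile normalization. The cause was not tested. Depth limits low genes most: the 192943 reads at 195 min list no gene below 51.83 RPM, and PHO4, PHO80, PHO85, IFH1, MSN4 and GIS1 had no value there.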
